A study of Mus musculus with 8 samples.

Results

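The genes described here are Serpina3f, Serpina3g, Serpina3h, Serpina3i, Serpina3m and Serpina3n, which lie in the Serpina3 cluster on mouse chromosome 12. They were taken by symbol from count tables of 24222 symbols, and all 6 were found. The set was chosen by the level of Serpina3g, which was higher in knockout, so the knockout against wild-type values of these 6 genes are a description and carry no test. The libraries came from haematopoietic stem cells, the cells from which all blood lineages arise, sorted by flow cytometry from mouse bone marrow. The 4 wild-type control mice (WT) and the 4 mice with triple knockout of Kdm4a, Kdm4b and Kdm4c (KO) were all of strain C57BL6, and cells were taken 2 weeks after the knockout was induced. The sources used here do not give the means of induction, the cells in which it acts, the exons removed, the sort markers or the age of the mice. Each mouse gave 1 RNA-seq library.

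Serpins are proteins that inhibit proteases by a suicide mechanism, in which the target protease cuts an exposed loop of the serpin and is trapped on it. Humans have a single SERPINA3 gene, encoding alpha-1-antichymotrypsin, while the mouse carries a cluster of copies whose loops differ. Serpina3g, also known as Spi2A, encodes an intracellular inhibitor of cathepsin B and related cysteine proteases, and it is known from lymphocytes, macrophages and early blood progenitors. Serpina3n encodes a secreted inhibitor of serine proteases such as granzyme B. Genes of the cluster are known to respond to interferon-gamma, which signals through STAT transcription factors, and to NF-kB.

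The cluster spans 302 kb, from 104112724 to 104414329 on chromosome 12 (mm10, GENCODE M21), and holds 14 annotated Serpina3 genes and pseudogenes. Serpina3f lies at 104214544 to 104221129, Serpina3g next to it at 104236245 to 104241939, Serpina3h at 104247905 to 104253669 and Serpina3i at 104263122 to 104269372. Farther along lie Serpina3m at 104338486 to 104394257 and Serpina3n at 104406729 to 104414329. All 6 are on the plus strand. Serpina3h is annotated as a transcribed pseudogene and the other 5 as protein-coding. The annotated exons of Serpina3m overlap those of Serpina3k over 3.49% of their bases, and those of the other 5 overlap no other gene of the cluster. The tables also list Serpina3a, Serpina3b, Serpina3c, Serpina3j and Serpina3k, and 3 pseudogenes of the cluster are not analysed here.

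The promoters are shown because a stretch just upstream of the gene start differs in its letters between the copies. In these libraries 2 of the 6 genes had reads in every library, and whether the stretch bears on this was not tested. RefSeq promoter sequences (GRCm38.p6, 250 bases before to 50 after a start) were found for 4 of the 6 genes, not for Serpina3h or Serpina3m. The motif searched was the gamma-activated site, TTCNNNGAA, which STAT dimers bind and which reads the same on both strands. It was looked for after these promoters had been read, and it occurs in 8.30% of 32851 promoters of this length. Serpina3f, Serpina3g and Serpina3i each hold 1 match and Serpina3n holds 0. Outside the 6 genes, Serpina3a, Serpina3b, Serpina3c and Serpina3j also hold 0. Since the genes are copies of one another, their matches are not independent, and the share over all promoters is no measure of chance for them. In the following 41-base stretches, each the best ungapped match to that of Serpina3g, capitals mark the motif or the bases in its place.
Serpina3g, chr12:104236098-104236138, plus strand: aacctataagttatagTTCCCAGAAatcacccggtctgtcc
Serpina3i, chr12:104263004-104263044, plus strand: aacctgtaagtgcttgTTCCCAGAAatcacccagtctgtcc
Serpina3f, chr12:104214407-104214447, plus strand: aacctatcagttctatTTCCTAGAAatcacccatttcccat
Serpina3n, chr12:104406569-104406609, plus strand: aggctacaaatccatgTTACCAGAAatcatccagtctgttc

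The stretch of Serpina3i matched that of Serpina3g at 36 of 41 bases, and those of Serpina3f and Serpina3n at 29 each. The 3 copies with the motif are next to each other apart from Serpina3h, which lies between Serpina3g and Serpina3i. The match begins 131 bases before the GENCODE start of Serpina3g, 121 before that of Serpina3f and 102 before that of Serpina3i. RefSeq places the start of Serpina3g farther upstream, at 104236147, so that the match there begins 33 bases before it. Serpina3i, with the motif, had 0 counts in every library. Searches of these 4 genes' promoters on both strands for an interferon-stimulated response element (in 3.44% of all promoters) and for an NF-kB site (in 1.47%) found no match, which says only that these letters are not in this window. The 250 bases before the RefSeq starts of the 2 genes with reads, with the motif in capitals, were as follows.
Serpina3g, chr12:104235897-104236146, plus strand: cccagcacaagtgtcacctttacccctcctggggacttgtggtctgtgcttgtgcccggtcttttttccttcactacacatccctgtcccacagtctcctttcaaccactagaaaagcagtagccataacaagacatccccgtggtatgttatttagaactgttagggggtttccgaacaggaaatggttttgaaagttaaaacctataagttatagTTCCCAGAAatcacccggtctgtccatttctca
Serpina3f, chr12:104214294-104214543, plus strand: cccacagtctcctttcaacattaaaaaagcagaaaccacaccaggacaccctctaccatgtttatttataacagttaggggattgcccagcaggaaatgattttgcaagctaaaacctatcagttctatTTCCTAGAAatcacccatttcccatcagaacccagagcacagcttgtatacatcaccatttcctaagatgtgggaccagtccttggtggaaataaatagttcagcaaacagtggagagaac

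The copies were similar but not identical, which bears on how well reads can be assigned. Serpina3g and Serpina3f were 87.4% identical over the 744 coding bases that could be aligned, the whole of the longest coding model of Serpina3g. Serpina3f and Serpina3i were closer, at 92.1% over 1220 aligned bases, and Serpina3n was 85.2% identical to Serpina3g over 648. The coding model of Serpina3g is short beside those of Serpina3f (1335 bases), Serpina3i (1224) and Serpina3n (1254), so these values cover unlike stretches. Of all windows of 75 bases in the GENCODE transcripts of Serpina3g, 92.3% occurred in no other gene on either strand. The share was 94.7% for Serpina3f, 93.4% for Serpina3i, 90.3% for Serpina3m, 89.0% for Serpina3h and 98.5% for Serpina3n. Serpina3g shared most with its neighbours Serpina3h, at 4.65% of its windows, and Serpina3i, at 3.53%. It shared 2.10% with the pseudogene Serpina3e-ps, which is not analysed here, and 2.01% with Serpina3f. Most of each transcript is therefore distinct at this length. The sources used here do not give the read length, the strand setting of the counting or the treatment of reads that map to several places. Reads from the shared stretches may have been dropped or assigned to another copy, so each count below is uncertain to that extent.

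**Figure D1:**
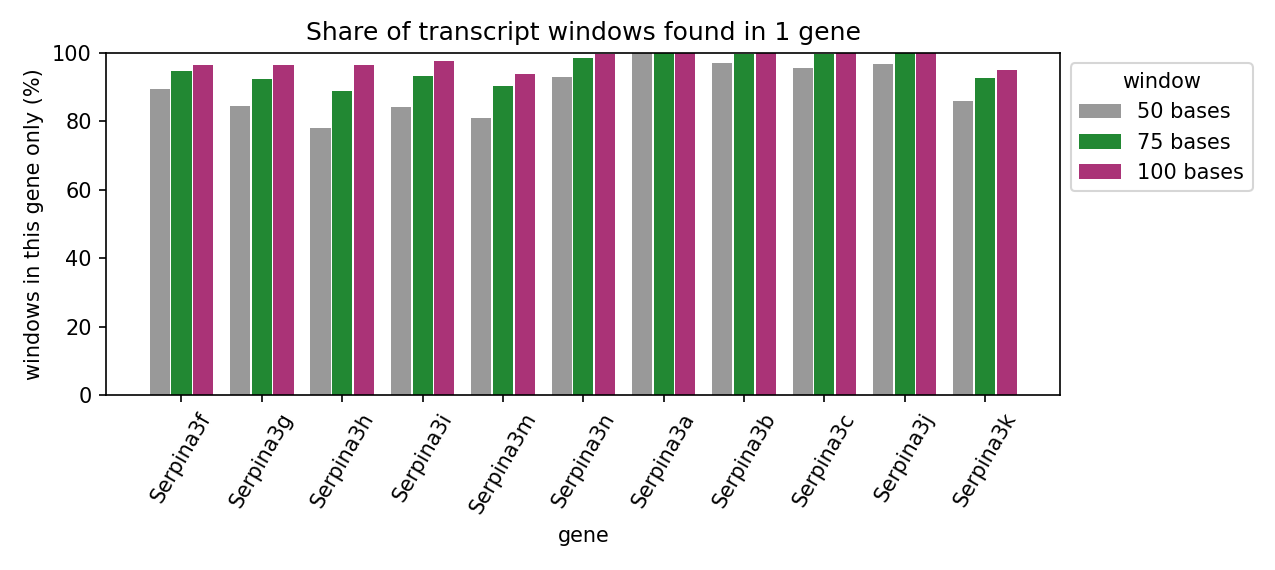
Share of distinct transcript windows of 50, 75 and 100 bases that occur in 1 gene only, in percent, for the 11 Serpina3 symbols of the tables. At 75 bases the 6 genes lie between 89.0% for Serpina3h and 98.5% for Serpina3n, and the shares are lowest with 50-base windows.

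Total counts ran from 3594315 to 6044289 in WT and from 5541504 to 14872493 in KO. Kdm4a, Kdm4b and Kdm4c were each lower in all 4 KO libraries than in any WT library. Of all genes tested, 5.81% had groups that did not overlap, in either direction. The fitted log2 fold changes, KO minus WT, were -0.865 (SE 0.249), -1.40 (SE 0.416) and -1.71 (SE 0.203). By edgeR's test Kdm4c passed (adjusted p = 2.05e-05), beside 0.583% of all genes, while Kdm4a and Kdm4b did not (0.132 and 0.142). The counts sum over the whole gene. In each library 3 counts, taken as the floor of detection, came to between 0.201 and 0.839 CPM (a library's counts scaled to a common total), and this floor covers counting error only. The 10 markers of haematopoietic stem cells, among them Hlf, Kit, Mecom and Procr, were all tested. Their summed level was 3912 to 4175 CPM in WT and 3261 to 3605 CPM in KO, without overlap, although none (0) of the 10 passed the test singly.

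Of the 6 genes, Serpina3g was the one with abundant RNA. Its counts ran from 305 to 631 in WT and from 738 to 1930 in KO. In CPM, scaled for library composition, it was at 86.0, 85.3, 80.7 and 101.8 in WT mice 1 to 4. In KO mice 1 to 4 it was at 153, 132, 129 and 137 CPM. The highest WT library was mouse 4 and the lowest KO library was mouse 3, and no KO library was as low as any WT library. Among the 11498 genes that passed the filter on low counts, 5.81% had groups that did not overlap, 2.88% with KO above WT. Since this contrast chose the gene, nothing is read from these shares. The mean was 88.5 ± 9.21 CPM in WT and 138 ± 10.8 CPM in KO (SD, n = 4). The fitted fold was 1.55, a log2 fold change of 0.63 (SE 0.147), and it lay between 1.49 and 1.63 when each library was left out in turn. The spread between mice of a genotype was small, with a coefficient of variation of 10.4% in WT and 7.85% in KO. In bulk RNA, more cells that express the gene and more RNA per cell cannot be told apart.

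Serpina3f, the copy before Serpina3g, was detected in every library at a low level, with 6 to 99 counts. It was at 4.33, 1.68, 1.96 and 6.78 CPM in WT mice 1 to 4. In KO mice 1 to 4 it was at 6.29, 7.50, 4.21 and 18.4 CPM. KO mouse 4 stood well above the rest, and the groups overlapped, since KO mouse 3 lay below WT mice 1 and 4. The means were 3.69 ± 2.38 CPM in WT and 9.10 ± 6.34 CPM in KO (SD, n = 4), so the spread between KO mice was larger than the difference between the means. The fitted log2 fold change was 0.96 (SE 0.547), and it was 0.48 without KO mouse 4 and 1.44 without WT mouse 4. With edgeR's legacy dispersion method, which was run first and then replaced with its calls known, it was 1.26.

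**Figure D2:**
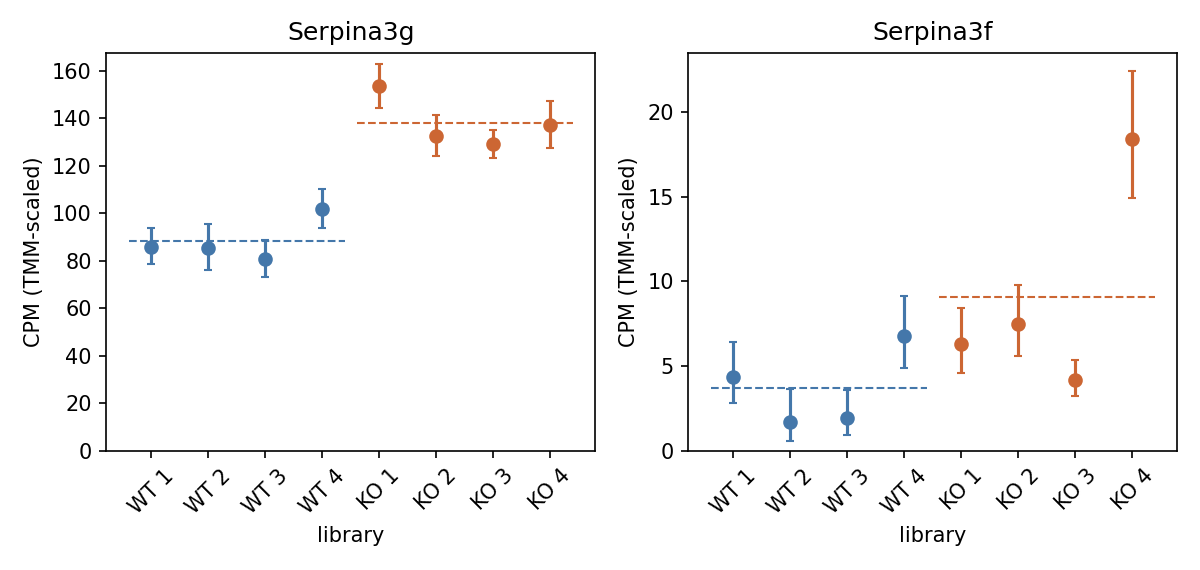
CPM of Serpina3g (left) and Serpina3f (right) in each library, with WT in blue and KO in orange. Bars are exact 95% Poisson intervals of the count, which cover counting error only, and dashed lines are group means. Serpina3g lies between 80.7 and 101.8 CPM in WT and between 129 and 153 CPM in KO, while Serpina3f reaches 18.4 CPM in KO mouse 4 and overlaps between the groups.

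Serpina3g made up most of the counts of the 2 detected copies in all libraries. Serpina3f made up 4.80%, 1.93%, 2.37% and 6.24% of the counts of both genes in WT mice 1 to 4. In KO mice 1 to 4 it made up 3.94%, 5.36%, 3.16% and 11.8%. The share in KO mouse 4 had an exact (Clopper-Pearson) 95% interval of 9.72% to 14.2%, above the upper bounds of the other 7 libraries, which were at most 8.34%. These intervals cover the counting of reads from amplified RNA and not the spread between mice, so they do not test whether this mouse differs. Apart from that mouse, the KO shares lay within the range of the WT shares.

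**Figure D3:**
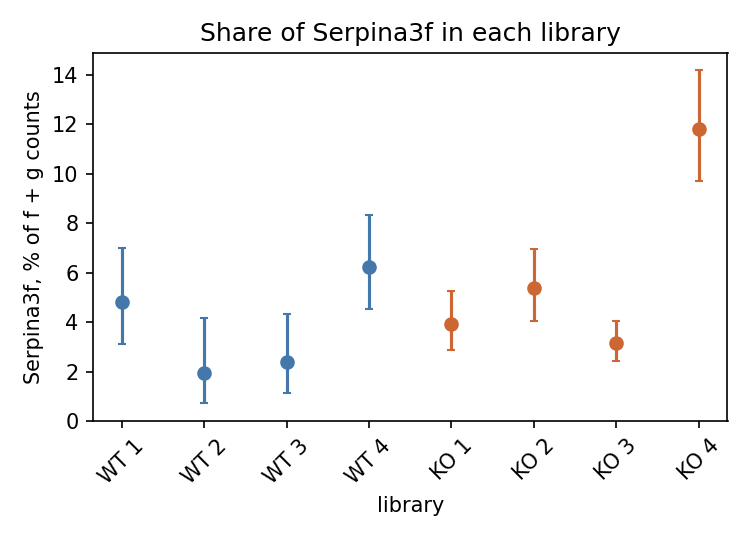
Counts of Serpina3f as a percentage of the counts of Serpina3f and Serpina3g together in each library, with exact 95% binomial intervals, which cover counting error only (WT blue, KO orange). KO mouse 4 is at 11.8%, and the other 7 libraries lie between 1.93% and 6.24%.

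The other 4 genes had almost no reads. Serpina3i and Serpina3n, the secreted inhibitor, were listed at 0 in all 8 libraries, which allows up to 3 counts in each. The pseudogene Serpina3h had 2 counts, both in KO mouse 4, and Serpina3m had 1 count, in WT mouse 4. None of these 4 passed the filter on low counts, and their levels in the 2 genotypes cannot be compared at this depth. Serpina3f and Serpina3g passed it, so 2 of the 6 have a fitted value.

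Among the other symbols of the cluster, Serpina3a, Serpina3c and Serpina3j were at 0 throughout and Serpina3k had 1 count in each of 2 libraries. Serpina3b had 22 counts in KO mouse 4, 3 in KO mouse 3 and 0 in the other 6 libraries. KO mouse 4 was thus also the library with the highest Serpina3f level. Of the 75-base windows of Serpina3b, 99.8% occurred in no other gene, and 0 of its windows were shared with Serpina3f or Serpina3g. Over the whole cluster, Serpina3g took 93.6% to 98.1% of the counts in WT and 85.6% to 96.7% in KO.

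Per length, Serpina3g had the highest level of the 15 serpin genes tested, out of 63 serpin symbols in the tables, of which 36 were at 0 in every library. In WT it was at 42.0 ± 4.38 CPM per kilobase of merged exons (SD, n = 4), above 91.5% of the genes tested with a known length. Next came Serpinf1, which encodes a secreted factor against blood vessel growth, at 22.3 ± 2.53 CPM per kilobase, and Serpinb9, an inhibitor of granzyme B, at 17.3 ± 2.05. The lowest WT library of Serpina3g, at 38.3 CPM per kilobase, lay above the highest of Serpinf1, at 25.9. Below these came Serpinb1a, an inhibitor of neutrophil elastase, at 14.5 ± 7.01 and Serpinb6b at 11.8 ± 1.87 CPM per kilobase. The WT range of Serpinb1a took in those of Serpinb9 and Serpinb6b, and overlapped that of Serpinf1, so its place beside them is not resolved. Serpinf1 and Serpinb9 also overlapped, at 20.0 to 25.9 and 15.7 to 20.2 CPM per kilobase, while Serpinb9 and Serpinb6b did not. Serpina3f came 10th, at 1.61 ± 1.04 CPM per kilobase, next to Serpini1 at 2.24 ± 0.629 and Serpinb10 at 1.55 ± 0.308, whose ranges overlapped with its own. In KO, Serpina3g was at 65.6 ± 5.15 and Serpina3f at 3.97 ± 2.77 CPM per kilobase.

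**Figure D4:**
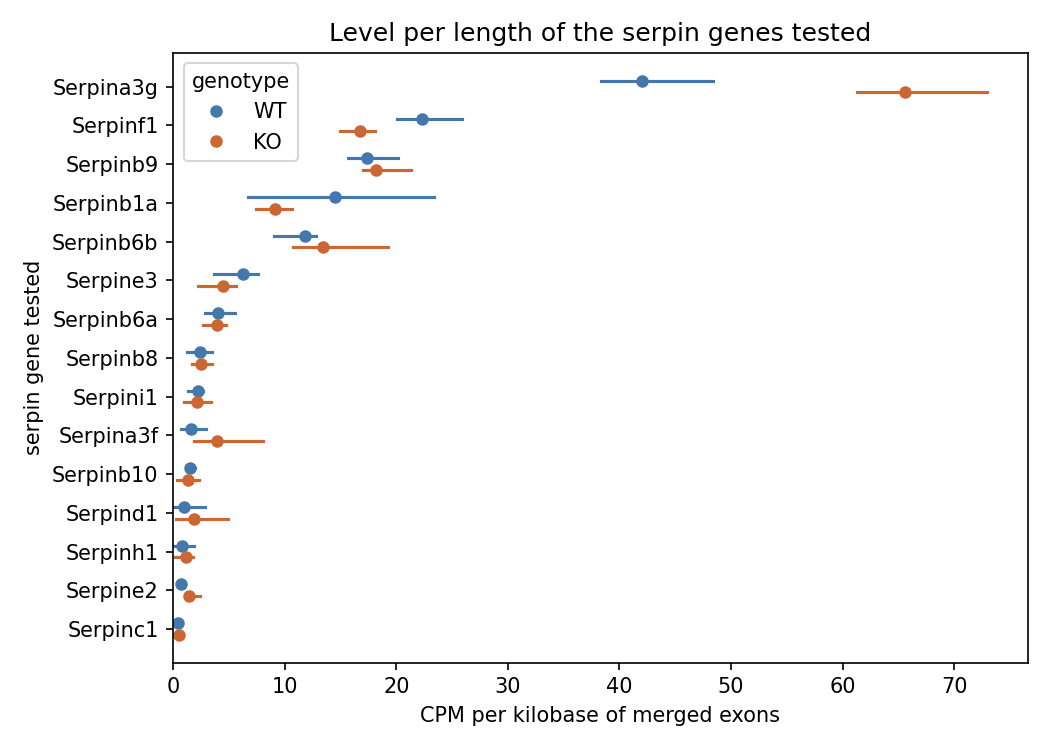
CPM per kilobase of merged exons for the 15 serpin genes tested, ordered by the WT mean. Points are means and lines run from the lowest to the highest of 4 libraries (WT blue, KO orange). Serpina3g is highest in both genotypes, at 42.0 in WT and 65.6 in KO.

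The serpin genes outside the cluster were then compared between genotypes by edgeR's quasi-likelihood test over all 11498 genes, of which 0.583% passed an adjusted p of 0.05, 0.252% higher and 0.33% lower in KO. An unadjusted p under 0.05 was reached by 11.2% of them, 5.76% higher and 5.44% lower, and DESeq2 called 1.34% of the genes to which it gave an adjusted p. None (0) of 6 clade B serpins, which are intracellular, passed. At an unadjusted p under 0.05, 1 of the 6 was lower, beside 5.44% of all genes, and DESeq2 called 0. It was Serpinb1a, with a WT mean of 33.5 ± 16.1 CPM and a KO mean of 21.1 ± 3.05 CPM (SD, n = 4, edgeR adjusted p = 0.323). None (0) of 7 serpins of other clades passed edgeR's test either, with 1 higher and 1 lower at an unadjusted p under 0.05, beside 11.2% of all genes, and 0 called by DESeq2. The smallest p was that of Serpine2, protease nexin 1, which inhibits thrombin, at 5.61 ± 1.88 and 12.1 ± 5.39 CPM (edgeR adjusted p = 0.34). The median log2 fold change was -0.081 for clade B and 0.181 for the other clades, beside 0.002 over all genes tested. The 14 other clade A symbols listed, such as Serpina1a to Serpina1e, were below the filter.

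The genes on either side of the cluster did not pass the test. The nearest gene tested before it was Ifi27, an interferon-induced gene 672 kb away, with 21.9 ± 7.49 CPM in WT mice and 27.9 ± 4.38 CPM in KO mice. The nearest after it was Dicer1, the microRNA-processing nuclease 273 kb away, at 213 ± 14.5 and 191 ± 29.98 CPM (SD, n = 4, edgeR adjusted p = 0.676 and 0.719). Of 7 flanking genes tested, 0 passed edgeR's test, 1 was lower at an unadjusted p under 0.05, beside 11.2% of all genes, and DESeq2 called 0. That gene was Otub2, a deubiquitinase, at 19.4 ± 5.36 and 10.1 ± 0.866 CPM (edgeR adjusted p = 0.236). The median of the 7 log2 fold changes was -0.033.

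Proteases that serpins of this kind are known to inhibit were present at levels that did not pass the test between genotypes. Ctsb, which encodes cathepsin B, had a level of 108 ± 18.5 CPM in WT mice and of 113 ± 17.0 CPM in KO mice. In WT this was above the 88.5 CPM of Serpina3g, but per kilobase it was 17.9 CPM against 42.0 for Serpina3g. That order rests on the merged exons of all annotated transcripts, 6051 bases for Ctsb and 2105 for Serpina3g. Ctsl, cathepsin L, was at 73.4 ± 25.2 and 58.6 ± 3.63 CPM. Of 8 cysteine cathepsins tested, 0 passed edgeR's test, 0 had an unadjusted p under 0.05 and DESeq2 called 0. Over all genes these shares were 0.583%, 11.2% and 1.34%, so few or no calls would be met among any 8 genes. The smallest p was that of Ctss, cathepsin S, at 8.78 ± 4.21 and 14.9 ± 2.88 CPM (SD, n = 4, edgeR adjusted p = 0.461). The cystatins are the other inhibitors of these enzymes. Cst3, cystatin C, was at 98.3 ± 2.93 and 98.9 ± 13.8 CPM, and Cstb, cystatin B, at 12.1 ± 4.45 and 14.7 ± 0.808 CPM (edgeR adjusted p = 0.995 and 0.861). Both gave an unadjusted p above 0.05, and DESeq2 called 0 of the 2, beside the same shares over all genes.

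Of the granule serine proteases, Prtn3 and Elane alone passed the filter. Prtn3, proteinase 3, had 16.2 ± 4.69 CPM in WT mice and 10.95 ± 2.79 CPM in KO mice (SD, n = 4, edgeR adjusted p = 0.469). Elane, neutrophil elastase, was at 1.66 ± 1.58 and 4.18 ± 3.13 CPM. Neither (0 of 2) passed edgeR's test, 0 had an unadjusted p under 0.05 and DESeq2 called 0. Over all genes these shares were 0.583%, 11.2% and 1.34%. Ctsg, cathepsin G, had at most 12 counts and Gzmb, granzyme B, at most 1 count in any library.

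Genes of the STAT and NF-kB pathways, the signals known to act on Serpina3g, were mostly well expressed. None (0) of 20 passed edgeR's test and DESeq2 called 0, beside 0.583% and 1.34% of all genes. An unadjusted p under 0.05 was reached by 3, beside 11.2% of all genes, with 1 of the 3 higher and 2 lower in KO. The log2 fold changes had a median of -0.137, with 8 of the 20 above 0, beside 50.2% of all genes tested. The receptor gene Ifngr1 had 58.0 ± 19.5 CPM in WT mice and 56.2 ± 13.3 CPM in KO mice (SD, n = 4). The kinase gene Jak2 had 197 ± 26.5 and 182 ± 28.3 CPM, and the NF-kB subunit gene Nfkb1 144 ± 10.9 and 148 ± 19.9 CPM. Ifngr1, Jak2 and Nfkb1 were not among the 3 genes with an unadjusted p under 0.05.

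Of 20 genes known to respond to interferon-gamma, 17 had a positive log2 fold change, beside 50.2% of all genes tested. The median of the 20 was 0.394, beside 0.002 for all genes tested. By edgeR's test 1 rose and 0 fell. DESeq2 called 3 of them, all higher in KO, and 11 had an unadjusted edgeR p under 0.05, 10 of these higher. Over all genes tested the shares were 0.583% by edgeR's test, 1.34% by DESeq2 and 11.2% at an unadjusted p under 0.05. The list was drawn up with earlier results of these data known, so its direction is not independent evidence. The gene that rose was Iigp1, an immunity-related GTPase. It was at 65.4, 78.6, 59.5 and 108 CPM in WT mice 1 to 4, and at 136, 155, 113 and 146 CPM in KO mice 1 to 4. WT mouse 4 was the highest of its group and KO mouse 3 the lowest of its own, as for Serpina3g. The groups did not overlap, beside 2.88% of all genes tested with KO above WT in this way. Its log2 fold change was 0.80 (SE 0.177, edgeR adjusted p = 0.0278). The call was lost without WT mouse 1, 2 or 3 (edgeR adjusted p = 0.133, 0.0886 and 0.161) and without KO mouse 2 or 4 (0.0956 and 0.0813). The adjusted p ranged from 0.00114 to 0.161 over 15 alternatives. Cxcl10, a chemokine gene, averaged 5.63 ± 1.91 CPM in WT mice and 22.5 ± 11.6 CPM in KO mice (SD, n = 4). It missed the threshold (edgeR adjusted p = 0.0576), but passed with edgeR's legacy method, the one run first (0.0123).

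**Figure D5:**
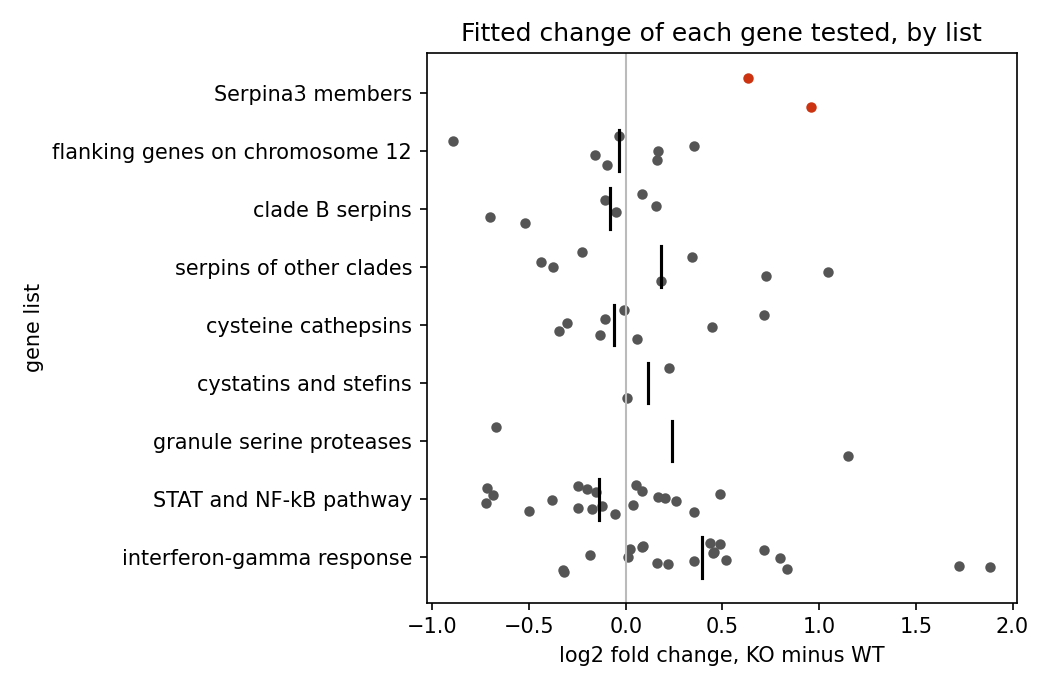
Fitted log2 fold change, KO minus WT, of every gene tested in the Serpina3 set (red) and in 8 lists of related genes (grey); black bars are the medians of the lists. The median is 0.394 for the interferon-gamma response and -0.137 for the STAT and NF-kB pathways.

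The genes whose levels over the 8 libraries were most like those of Serpina3g were Cd180, Gbp6, Gatad1, Basp1 and Ifi44, in that order, by Pearson's r of log2 CPM over 9980 genes with a mean of at least 5 CPM. The r lay between 0.961 and 0.980. Since it takes in the difference between genotypes, r was also taken after centring each genotype, and was then 0.894 for Gbp6, 0.853 for Gatad1, 0.804 for Cd180, 0.719 for Ifi44 and 0.614 for Basp1. These values describe 8 libraries and include the contrast by which Serpina3g was chosen. Genes picked by likeness to Serpina3g over these libraries tend to share its difference between genotypes. Their adjusted p values below are therefore a description and not independent tests. Over all genes tested, 0.583% passed. Cd180, a Toll-like receptor homologue, ranged from 82.2 to 120 CPM in WT and from 190 to 259 CPM in KO (edgeR adjusted p = 7.21e-05). KO mouse 1 was the highest library for Cd180, as for Serpina3g. Gbp6, an interferon-induced GTPase gene, was at 5.68 to 9.52 CPM in WT and 10.96 to 14.1 CPM in KO (edgeR adjusted p = 0.446). Gatad1, a GATA zinc finger gene, was at 217 to 247 CPM in WT and 261 to 313 CPM in KO, with an edgeR adjusted p of 0.288. Basp1, a membrane-associated signalling protein gene, was at 21.0 to 30.3 CPM in WT and 44.0 to 48.1 CPM in KO. Its edgeR adjusted p was 0.0492, and the call was lost without any 1 of the 8 libraries (0.0514 to 0.17); the adjusted p ranged from 0.0012 to 0.17 over 15 alternatives. Ifi44, an interferon-induced gene, ranged from 93.99 to 189 CPM in WT and from 273 to 342 CPM in KO (edgeR adjusted p = 7.99e-05). Over the same libraries, r between Serpina3f and Serpina3g was 0.725, and 0.511 after centring each genotype.

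Serpina3g is also expressed by lymphocytes and macrophages, so markers of other cells were read in the same libraries. Of 7 T and NK cell markers, summed levels were 10.9 to 33.3 CPM in WT and 23.6 to 34.3 CPM in KO, and Cd3g and Ncr1 were at 0 in every library. The 6 B cell markers summed to 10.6 to 11.9 and 8.29 to 18.2 CPM. The 7 macrophage and dendritic cell markers summed to 14.5 to 28.6 CPM in WT and 18.9 to 31.0 CPM in KO, with Siglech at 0 throughout. Of the 3 that passed the filter, edgeR called Cd68 higher (adjusted p = 0.0347) and Mrc1 lower (0.02), beside 0.583% of all genes. From WT to KO, mean Cd68 went from 6.58 ± 3.31 to 19.9 ± 4.19 CPM (SD, n = 4). Mean Mrc1 went from 6.09 ± 3.96 to 0.989 ± 0.602 CPM. Vcam1, the other gene tested, went from 7.75 ± 1.63 to 2.69 ± 0.603 CPM without a call (edgeR adjusted p = 0.135). The sum of this list thus hides moves in opposite directions. The 7 neutrophil and monocyte markers summed to 175 to 226 and 215 to 240 CPM, most of it Lyz2, at 171 ± 31.0 and 189 ± 26.7 CPM. Erythroid markers summed to 17.7 to 39.4 CPM in WT and 11.4 to 27.7 CPM in KO. Mast cell and basophil markers summed to 1.91 to 9.79 and 2.21 to 7.93 CPM, and those of stroma and endothelium to 30.7 to 66.2 and 36.0 to 65.8 CPM. The sums of all these lists overlapped between genotypes, while that of the stem cell markers, given above, did not. Whether any of them bears on the Serpina3g difference was not tested.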

How the data were processed

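Each library has a deposited table of whole-number read counts by gene symbol. Per the labels' protocols, RNA was pre-amplified with the Nugen Ovation system, sequenced on a NextSeq 500, mapped with STAR (Galaxy 2.4.0d-2) and counted with htseq-count (Galaxy 0.6.1galaxy1). The submitters' processing notes name mm10. A count is of reads, not molecules. Nothing says whether mice of a genotype shared a batch.

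Counts were tested with edgeR 4.0.16 in R 4.3.3: filterByExpr (minimum count 10, minimum total 15), TMM scaling, quasi-likelihood with robust dispersion and adjusted deviances, genotype as the only term, two-sided, Benjamini-Hochberg over all 11498 genes tested, threshold 0.05. SE is the log2 fold change divided by the square root of F. The procedure was tested on simulated counts. Alternatives were DESeq2 1.42.0, edgeR's legacy method (run first, then replaced, with its calls known), other scalings and filters, the mouse number as a block, and omission of each library.

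The genes and lists were chosen with earlier results of these data known. Named genes are the 6 genes, the other Serpina3 copies, those past the threshold in each list (at most 4, otherwise the smallest p), the nearest tested gene on each side, and the 5 most like Serpina3g. Ctsb, Ctsl, Cst3, Elane, Ctsg, Gzmb, Ifngr1, Jak2, Nfkb1, Cxcl10, Vcam1 and the other serpins were added after their values were seen. Windows were searched in GENCODE M21 transcripts instead of a genome, and reactive loops were not compared here. A gene that this rule names is not reported here.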

Additional observations from a re-analysis of the deposited data

Results flagged for a closer look

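Among the genes named, 41 groups of 4 libraries with unequal values were checked for a library far from the others, by the gap to its neighbour over the group's range, and chance marks about 1 group in 20 (5%). In 5 of them 1 library stood apart. Serpina3b in KO mouse 4 was at 4.09 CPM against 0.201 CPM in the next KO library, a ratio of gap to range of 0.951. The other 4 rest on 1 or 2 counts, each with a ratio of 1: Serpina3h in KO mouse 4, Serpina3m in WT mouse 4, and Serpina3k in WT mouse 1 and in KO mouse 4. In these 4 groups the other libraries are at 0, so the ratio is 1 by construction and the chance rate does not apply to them.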

How the results depend on the processing

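The log2 fold change of Serpina3g stayed between 0.575 and 0.708 over 15 alternatives, and that of Serpina3f between 0.478 (without KO mouse 4) and 1.44 (without WT mouse 4); both kept their sign. With the replicate block, on mouse numbers that do not pair the libraries (same-numbered deviations correlated between -0.092 and -0.009), they were 0.644 and 1.24, and 57 genes passed instead of 67. The number of genes passing was 199 with no filter and 154 with DESeq2, and 35 to 70 when each library was left out. It fell to 44 without WT mouse 2, 35 without WT mouse 3 and 44 without KO mouse 4. The cause was not tested. The stricter filter gave 64 genes, 31 higher and 33 lower, instead of 29 and 38. The legacy quasi-likelihood method of edgeR was run first, and was kept as an alternative after its calls were known. It gave 64 genes, 32 higher and 32 lower, with 0.64 for Serpina3g and 1.26 for Serpina3f. The Basp1 call was also lost with DESeq2 size factors, without TMM and with the replicate block. The WT level per kilobase was 42.9 for Serpina3g and 1.70 for Serpina3f with unique windows as length. Windows found in 1 gene only made up, with 50 and 100 bases, 84.5% and 96.5% for Serpina3g, 89.4% and 96.6% for Serpina3f, 78.1% and 96.4% for Serpina3h, 84.1% and 97.8% for Serpina3i, 80.9% and 93.9% for Serpina3m, and 93.1% and 99.8% for Serpina3n, since longer windows span more differences. Depth limits Serpina3f, at 6 and 10 counts in WT mice 2 and 3, and the 4 genes with almost no reads.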
